A study of Homo sapiens with 33 samples.

Results

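The genes described are the splicing factors and heterogeneous nuclear ribonucleoproteins (hnRNPs) of K562 cells, a human erythroleukemia line. They were taken by name from the gene-level expression table as all SRSF, HNRNP, SF3A, SF3B, SNRP and U2AF entries that are not pseudogenes. This gave 57 of the 58293 entries, comprising 23 HNRNP, 12 SRSF, 9 SF3A and SF3B, 11 SNRP and 2 U2AF genes. Of the 900 RNA fragments with read counts analysed here, 4 lay wholly inside the spans of these genes, 1 in SRSF4, 2 in HNRNPU and 1 in HNRNPD.

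The study asked which RNAs are bound by EZH2, the histone methyltransferase of Polycomb Repressive Complex PRC2, and where in the cell those RNAs reside. All samples used here were from wild-type K562 cells. Gene expression (FPKM, fragments mapped, scaled to transcript length and library size) came from the input RNA of the RIP-seq experiment, labelled total RNA and, by the methods, taken from fixed and sonicated nuclei. Reads on the EZH2 RIP-seq fragments came from cytoplasmic RNA, nuclear RNA, and the nuclear RNA that did (polyA+) or did not (polyA−) bind magnetic beads that isolate poly(A) RNA. All were sequenced after removal of rRNA, with 1 library each.

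Removal of introns begins when U1 and U2 small nuclear ribonucleoproteins (snRNPs) recognize the donor site and the branch point, helped by U2AF at the acceptor site. SR proteins bind exonic enhancers and mostly promote the use of nearby splice sites, whereas many hnRNPs bind silencers and act against it. Genes of both groups are known to regulate their own mRNAs through alternative exons whose inclusion leads to nonsense-mediated decay.

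The input library had the profile of an erythroid line. All 12 erythroid markers reached an FPKM of 1, with a median of 15.0, from HBA1 at 4.73 to HBG2, a fetal γ-globin, at 218. Of the simulated reads described below, 23.1% aligned back for HBA1 and for HBA2, 66.7% for HBG1, 72.7% for HBZ and 84.2% for HBG2. The levels of these globin genes are therefore uncertain. Of 9 markers of other cell types, 3 reached an FPKM of 1, namely EPCAM at 27.9, CD3D at 6.29 and PECAM1 at 1.79, while COL1A1, ALB, CD3E, MPO, ELANE and CD79A were between 0 and 0.677. Their part in the levels below was not tested. With 1 library, no error between replicates can be given. The bounds in parentheses are those deposited with each FPKM, and they describe the estimate within that library only. In bulk RNA, a lower level in every cell and fewer expressing cells cannot be told apart.

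Splicing factor and hnRNP genes were expressed at high levels as a group. An FPKM of at least 1 was reached by 52 of the 57 genes (91.2%), compared with 21.8% of all entries and 49.2% of the 19757 protein-coding entries. The median FPKM was 46.3 for the 57 genes and 0.902 for protein-coding entries. An FPKM of at least 10 was reached by 47 genes and of at least 50 by 25. An FPKM of at least 100 was reached by 9 genes, 7 of them HNRNP and 2 SRSF, which is 15.8% of the genes beside 0.992% of protein-coding entries. The 57 genes carried 1.55% of the summed FPKM of the table. Among the 1000 entries with the highest FPKM were 33 of them, and HNRNPA1 was the only gene among the highest 100.

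**Figure D1:**
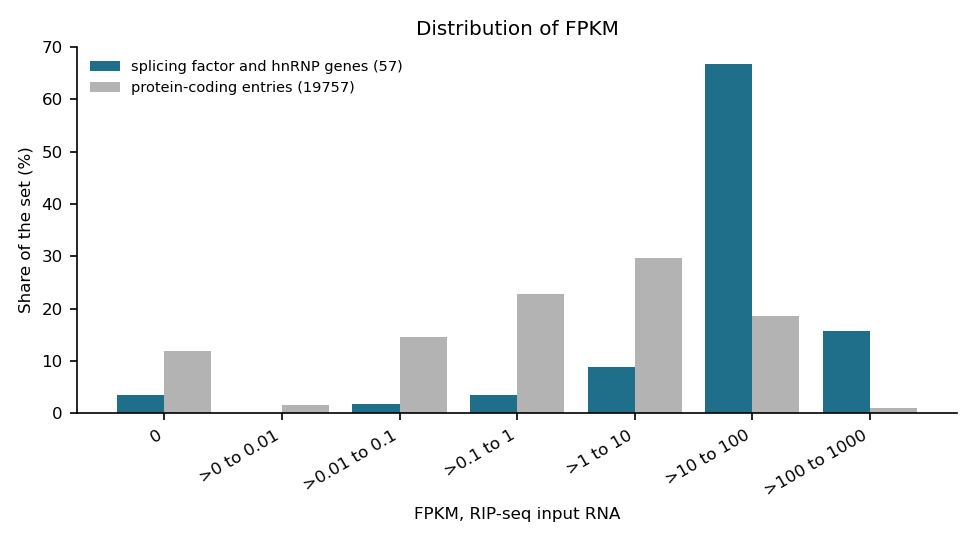
Share of the 57 splicing factor and hnRNP genes (blue) and of 19757 protein-coding entries (grey), in percent on the vertical axis, by FPKM of the input RNA on the horizontal axis. The interval from above 10 to 100 holds 66.7% of the splicing factor and hnRNP genes and 18.6% of the protein-coding entries.

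The bounds were narrow for most of these genes. For the 52 genes at or above an FPKM of 1, they lay a median of 9.35% to either side of the estimate, from 3.05% for HNRNPU to 36.4% for U2AF1. The level of these 52 genes was weakly related to the length of their annotated exons (Spearman's rho 0.32 across genes, which are not independent replicates), beside 0.08 for the 9728 protein-coding entries at or above 1. Since alignments of low mapping quality had been removed by the authors, simulated 100-base reads from the exons of each gene were aligned to the genome. At least 99% of these reads aligned back at a mapping quality of 20 or more for 32 of the 57 genes, and under 90% for 7, namely HNRNPA1, HNRNPA3, U2AF1 and HNRNPCL1 to HNRNPCL4. The simulated reads were single, whereas those of the authors were longer, paired and aligned by STAR. The shares are therefore only a rough guide to the losses in the data.

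Of the families, HNRNP had the widest range of levels, around a median FPKM of 58.1. HNRNPA1, which binds splicing silencers and accompanies mRNA on export, had the highest FPKM of all 57 genes at 296 (283 to 309). The percentage of simulated HNRNPA1 reads that aligned back was 89.9%. HNRNPU, a chromatin-associated protein also called scaffold attachment factor A, followed at 188 (182 to 193). HNRNPH1, which binds runs of G, was at 178 (164 to 192), and its bounds overlapped those of HNRNPU. HNRNPC, which binds tracts of U and competes with U2AF2 there, was at 151 (144 to 158). HNRNPK, which binds C-rich RNA through KH domains, was at 129 (122 to 137). HNRNPDL and HNRNPD, both binders of AU-rich elements, were at 106 (100.0 to 111) and 104 (98.7 to 110), with overlapping bounds. Of the 22 pairs of neighbours in the order of the HNRNP levels, 12 had bounds that did not overlap.

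Below these came 7 HNRNP genes at FPKM values from 46.3 to 86.0. HNRNPM, at 86.0 (80.7 to 91.3), HNRNPH3, at 81.5 (75.3 to 87.8), HNRNPF, at 77.7 (73.8 to 81.7), and HNRNPR, at 73.1 (69.4 to 76.8), formed a series in which each overlapped the next. HNRNPL, which recognizes CA repeats, was at 58.1 (53.9 to 62.3), HNRNPAB at 53.1 (49.2 to 57.0) and HNRNPA3 at 46.3 (43.1 to 49.6). The lower members were HNRNPUL1 at 35.2 (30.5 to 40.0), HNRNPLL, a regulator of CD45 splicing in lymphocytes, at 19.2 (16.8 to 21.5), HNRNPH2 at 14.9 (13.5 to 16.4), HNRNPUL2 at 6.59 (5.42 to 7.76) and HNRNPA0 at 3.26 (2.96 to 3.56). The 4 HNRNPC-like copies on chromosome 1 were the only HNRNP genes under 1. HNRNPCL1 was at 0.246 with an upper bound of 0.492, HNRNPCL2 was at 0.0590, and HNRNPCL3 and HNRNPCL4 were listed at 0. Of the simulated reads, 57.5%, 55.0%, 5.80% and 6.15% aligned back to the respective copies, and the levels of the 4 copies are therefore uncertain. Without the 4 copies the HNRNP median was 77.7.

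**Figure D2:**
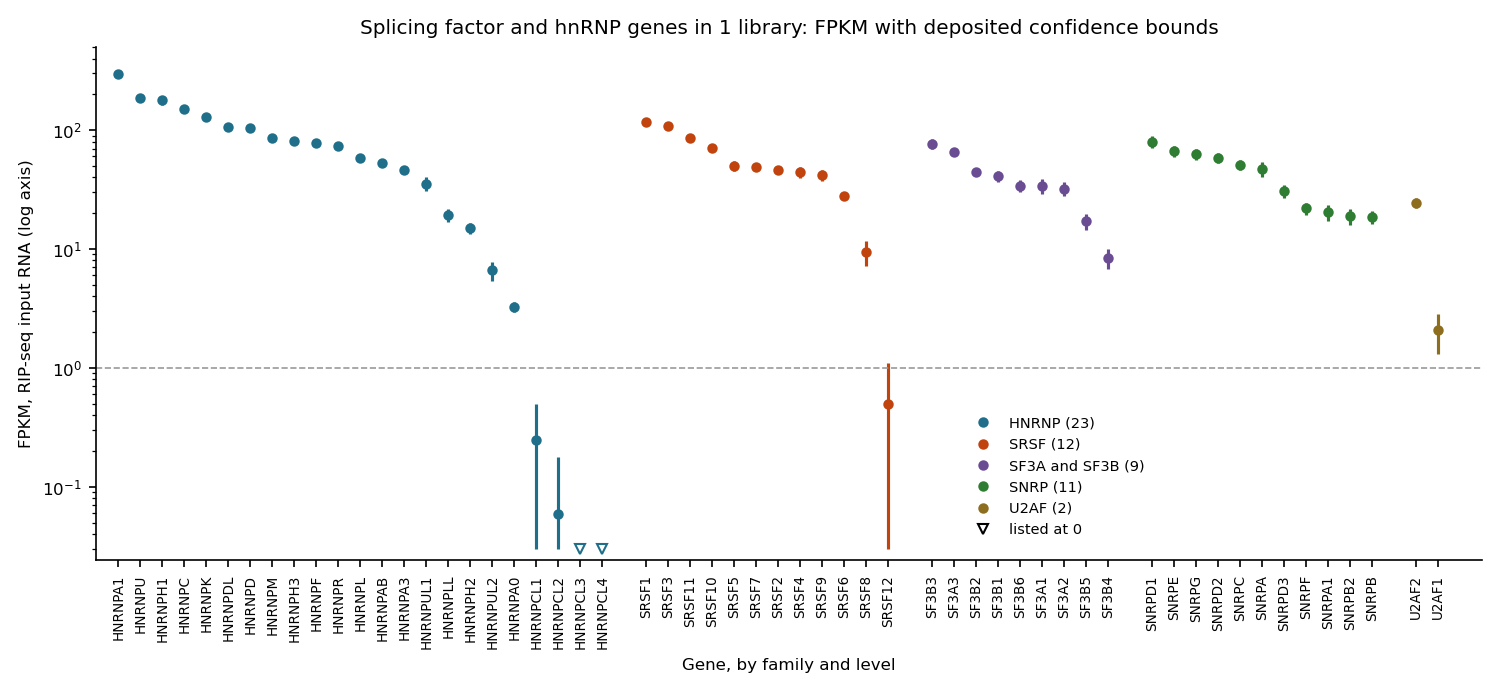
FPKM of the 57 genes in the input RNA (vertical log axis), grouped by family and ordered by level along the horizontal axis, where points are estimates, bars the deposited confidence bounds (cut off at the foot of the axis where the lower bound is 0), open triangles genes listed at 0 and the dashed line an FPKM of 1. HNRNPA1 at 296 is the highest point, and HNRNPCL1 to HNRNPCL4 and SRSF12 are the 5 genes under the line.

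Closely related hnRNP genes differed widely in level. Among HNRNPA1, HNRNPA3 and HNRNPA0, the highest FPKM was 90.8 times the lowest, and 79.5 times when the bounds nearest to each other were used. Between HNRNPU and HNRNPUL2 the ratio was 28.5 (at least 23.4 from the bounds), and among the F and H genes the ratio of HNRNPH1 to HNRNPH2 was 11.9 (at least 10.00). The L pair differed by a ratio of 3.03 and the D group, HNRNPDL, HNRNPD and HNRNPAB, by 1.99.

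SRSF genes had a median FPKM of 47.5, and 11 of the 12 reached 1. SRSF1, the founding SR protein, was at 117 (109 to 126) and overlapped SRSF3, the smallest SR protein and an adaptor of mRNA export, at 108 (101 to 115). SRSF11 was at 86.6 (80.5 to 92.6) and SRSF10, which represses splicing when dephosphorylated, at 70.8 (66.2 to 75.4). The next 5 genes formed a plateau in which each overlapped the next: SRSF5 at 50.03 (45.2 to 54.9), SRSF7 at 48.7 (44.9 to 52.4), SRSF2 at 46.4 (42.6 to 50.2), SRSF4 at 44.4 (39.5 to 49.4) and SRSF9 at 41.5 (37.3 to 45.8). SRSF6 was lower, at 27.95 (25.9 to 30.01). SRSF8, a retrocopy of SRSF2, was at 9.39 (7.18 to 11.6), and the ratio of SRSF2 to SRSF8 was 4.94. SRSF12 was at 0.499 (0 to 1.09), and its close relative SRSF10 exceeded it 142 times, or 60.7 times from the nearest bounds. SRSF1 exceeded its relative SRSF9 2.83 times, SRSF3 exceeded SRSF7 2.22 times, and SRSF4, SRSF5 and SRSF6 lay within a ratio of 1.79.

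The 9 U2 snRNP subunits named SF3A or SF3B all reached an FPKM of 1, with a median of 33.9, although the proteins enter their complexes in fixed numbers. PHF5A, a further SF3b subunit, is outside the name pattern and was not included. Among the 3 SF3a subunits, SF3A3 was at 65.2 (60.2 to 70.3), whereas SF3A1 at 33.8 (28.9 to 38.8) and SF3A2 at 32.03 (27.7 to 36.3) overlapped. Within SF3b, SF3B3 was at 76.7 (69.8 to 83.7), SF3B2 at 44.4 (41.0 to 47.9) and SF3B1, which holds the branch-point helix, at 41.0 (36.7 to 45.2). SF3B6, the subunit beside the branch-point adenosine, was at 33.9 (29.9992 to 37.7). The lowest were the small subunit SF3B5 at 17.1 (14.4 to 19.8) and SF3B4, the partner of SF3B2, at 8.34 (6.73 to 9.96). The highest level of the 6 SF3B genes was therefore 9.20 times the lowest, with a smallest ratio of 7.01 from the bounds, and the SF3a ratio was 2.04 (at least 1.66).

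SNRP levels were narrow in range around a median FPKM of 47.4. SNRPD1, SNRPE, SNRPG and SNRPD2, which form the Sm ring together with SNRPD3, SNRPF and SNRPB, were at 79.4 (70.2 to 88.6), 66.5 (59.5 to 73.5), 63.1 (56.5 to 69.8) and 58.8 (53.2 to 64.3). SNRPD3 was at 30.6 (26.8 to 34.3), SNRPF at 21.9 (19.4 to 24.5) and SNRPB at 18.5 (16.2 to 20.8), so that the ring spanned a ratio of 4.29, or 3.38 from the bounds. The U1 proteins SNRPC at 51.2 (46.5 to 55.8) and SNRPA at 47.4 (40.5 to 54.3) overlapped each other. The U2 proteins SNRPA1 at 20.4 (17.3 to 23.5) and SNRPB2 at 18.8 (16.0 to 21.7) also overlapped each other, and both had upper bounds below the lower bounds of the U1 pair.

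Both U2AF genes reached 1, but the level of U2AF1, and so the ratio between them, is uncertain. U2AF2, which binds the polypyrimidine tract, was at 24.5 (22.1 to 26.9), and U2AF1, which reads the AG of the acceptor site, was at 2.07 (1.32 to 2.82), a ratio of 11.9. U2AF1 shares sequence with U2AF1L5, another entry on chromosome 21, at 2.24 (1.46 to 3.01). Of 251 stretches of 100 bases in the annotated exons of U2AF1L5, 95.2% were also in those of U2AF1. In the other direction, 2.23% of 10699 U2AF1 stretches were in the annotated exons of U2AF1L5. Of the simulated reads, 8.84% for U2AF1 and 0% of 11 for U2AF1L5 aligned back at a mapping quality of 20 or more, compared with 100% for U2AF2. The levels of U2AF1 and U2AF1L5 are thus uncertain, and the part of this loss in the ratio of 11.9 was not tested.

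**Figure D3:**
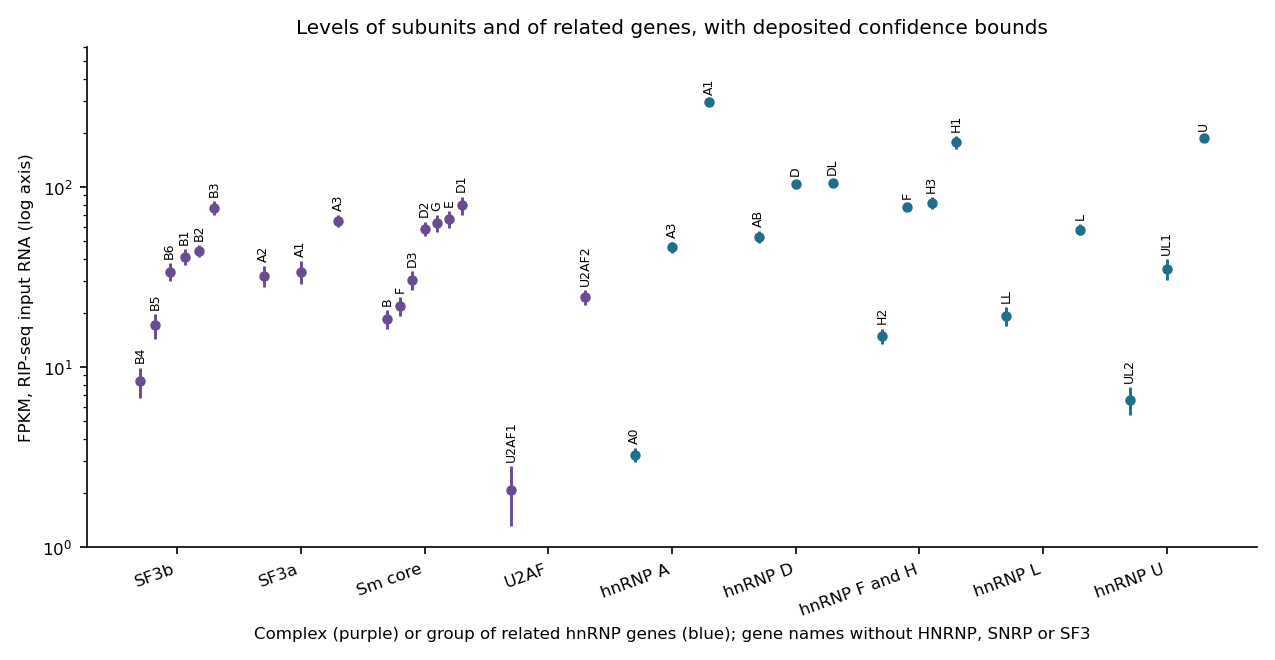
FPKM in the input RNA (vertical log axis) of the subunits of 4 complexes (purple) and of related hnRNP genes (blue), by group on the horizontal axis, where points are estimates and bars the deposited confidence bounds. The 6 SF3B genes span a ratio of 9.20 and those of the Sm ring 4.29, and HNRNPA1 stands 90.8 times above HNRNPA0.

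Entries outside the name pattern give the context of these levels. HNRNPA2B1, the close relative of HNRNPA1, was at 219 (209 to 228), and SNRNP70, the U1 70K protein, at 33.6 (30.003 to 37.2). SNRPN, the imprinted relative of SNRPB, was at 0 to the precision printed, with an upper bound of 0.390. HNRNPA1L2, an HNRNPA1 copy, was the other entry of these 10 under 1, at 0.723. All 15 U5 and tri-snRNP proteins reached 1, with a median of 22.1, from CD2BP2 at 6.40 to EFTUD2 at 84.1. All 8 LSM proteins did too, with a median of 17.0, from LSM7 at 12.9 to LSM4 at 38.1. So did the 11 genes of the PRP19 complex and exon junction core, with a median of 21.1, from CRNKL1 at 4.61 to RBM8A at 53.0. For RBM8A, 73.3% of the simulated reads aligned back, and its level is uncertain too. Of the 9 SR kinases and TRA2 genes, 8 reached 1, with a median of 15.4, from SRPK3, a muscle kinase, at 0.327 to TRA2B at 69.4.

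Broad RNA-binding regulators lay close to the SRSF genes, with 20 of 20 at or above 1 and a median of 45.8, from PTBP2 at 11.3 to PCBP2 at 109. The tissue-restricted splicing regulators, many of which act in neurons, muscle or epithelia, had a median of 0.147, and 3 of 18 reached 1, namely RBFOX2 at 5.30, RBM20 at 2.04 and ESRP2 at 1.27. The other 15 were ESRP1, NOVA1, RBFOX1, CELF4, SRRM3, MBNL3, ELAVL4, RBM24, RBFOX3, SRRM4, NOVA2, CELF5, ELAVL3, CELF3 and ELAVL2, the last 2 listed at 0 and none above 0.466. Both lists were chosen with earlier results of these data known. The place of a gene in a list, such as PTBP2 among the broad regulators, was a choice, and the difference between the lists was not tested.

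RefSeq promoter sequences (GRCh38, 250 bases before to 50 bases after the start) were matched by symbol for 52 of the 57 genes. Their median GC content was 62.5%, beside 65.3% for the 7748 matched protein-coding entries at or above an FPKM of 1, and ranged from 36.0% in SRSF8 to 77.0% in SRSF12. The letters CCGGAAG, the core recognized by ETS family factors, occurred on either strand in 19 of the 52 promoters (36.5%), in 22.7% of the promoters of those 7748 entries and in 10.7% of all 27305 promoters. Among the 19 were SRSF4, HNRNPD, SF3A1 to SF3A3, SNRPB and U2AF2. The letters TATAAA occurred on either strand in 6, HNRNPAB, HNRNPC, HNRNPD, SNRPC, SRSF3 and SRSF11 (11.5%, beside 4.88% of the 7748 and 11.95% of all). The 2 motifs contain no part of each other longer than 2 letters, and a match of letters is not a measured binding site.

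EZH2 RIP-seq fragments lay in 3 of the 57 genes. The list analysed here is shorter than the set of fragments that the study describes, so this count and the shares below cover the listed fragments only. By comparison, 245 (1.24%) of the protein-coding entries held at least 1 of the 900 fragments, as did 2.37% of those at or above an FPKM of 1. Of the 9 splicing factor and hnRNP genes at an FPKM of 100 or more, HNRNPU and HNRNPD held a fragment, beside 9 of all 196 protein-coding entries at that level. All 3 genes are annotated on the minus strand. The exons and introns below are those of GENCODE 44 on GRCh38, and the canonical transcript is the one that annotation marks as such.

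The SRSF4 fragment, chr1:29165940-29169048, is 3109 bp long and covers 14.7% of the first intron of the canonical transcript. None of it is canonical exon, and 27.5% is exon of transcripts annotated as nonsense-mediated decay or retained intron. It contains 2 cassette exons, of 136 bp (chr1:29168503-29168638) and 184 bp (chr1:29166729-29166912), both in the nonsense-mediated decay transcripts SRSF4-205 and SRSF4-208. The annotated exon in the fragment sums to 855 bp, of which 410 bp belong to the retained-intron transcript SRSF4-207 alone and 125 bp to the edge of a 175-bp exon that extends past the fragment. The splice sites of the 2 cassette exons are shown beside those of the whole intron because both exons lie entirely within the fragment. Each acceptor has 20 intronic and 3 exonic bases and each donor 3 exonic and 10 intronic bases, with the AG or GT at the intron end in capitals.
SRSF4 136-bp exon acceptor: tttttcctctattcttctAGtct
SRSF4 136-bp exon donor: aagGTcaatttct
SRSF4 184-bp exon acceptor: gtaggttttcttctttgaAGgtg
SRSF4 184-bp exon donor: cggGTaagtcatc
SRSF4 intron 1 acceptor: ttttctttgctctcttctAGata
SRSF4 intron 1 donor: cggGTgaggaggg
The last 20 intronic bases held 17 pyrimidines before the 136-bp exon, 12 before the 184-bp exon and 17 at the end of intron 1.

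Both HNRNPU fragments lie at the downstream end of the gene. The canonical transcript, HNRNPU-226, ends at chr1:244850297. The long fragment, chr1:244846610-244850928, is 4319 bp long, with 632 bp in the last canonical exon and 3687 bp (85.4%) beyond it. The short fragment, chr1:244845237-244845501, is 265 bp long and lies 4795 bp beyond that end. The whole of both fragments is exon of nonsense-mediated decay or retained-intron transcripts, of which HNRNPU has 9 and 10 among 32. The long fragment contains a 69-bp cassette exon (chr1:244848788-244848856) used in 4 transcripts and a 100-bp exon (chr1:244847002-244847101) of HNRNPU-212, the latter with a 52-bp form in HNRNPU-228 that shares its donor. Their splice sites are given in the same format.
HNRNPU 69-bp exon acceptor: tttcatctccttttccttAGtct
HNRNPU 69-bp exon donor: tagGTattccaaa
HNRNPU 100-bp exon acceptor: aaaccctatttgatccctAGctc
HNRNPU 52-bp exon acceptor: atcctgaatttattatatAGacc
HNRNPU 100-bp and 52-bp exon donor: gagGTacgtagac
The acceptor tract of the 69-bp exon held 17 pyrimidines of 20, compared with 12 and 11 for the 100-bp and 52-bp forms.

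The HNRNPD fragment, chr4:82362085-82363837, is 1753 bp long, covers 14.7% of intron 2 of the canonical transcript HNRNPD-201 and touches no annotated exon. The sites of that intron are shown since no closer one is annotated.
HNRNPD intron 2 acceptor: actgctttttgtctttacAGgaa
HNRNPD intron 2 donor: atgGTaaaacttt
This was the only one of the 4 fragments without an annotated alternative exon.

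Nuclear reads exceeded cytoplasmic reads on all 4 fragments, as they did on 96.2% of the 900. From 38 cytoplasmic and 218 nuclear reads, the ratio of the SRSF4 fragment was 5.74 (95% Clopper-Pearson interval 4.05 to 8.33). That of the long HNRNPU fragment, with 101 and 572 reads, was 5.66 (4.58 to 7.07), and that of the HNRNPD fragment, with 21 and 121 reads, was 5.76 (3.61 to 9.65). These 3 ratios lay well within each other's intervals. On the short HNRNPU fragment 1 cytoplasmic and 17 nuclear reads gave 17.0 (2.66 to 710). In exact binomial tests with Benjamini-Hochberg adjustment over the 900 fragments, the adjusted p-values were 3.11e-31, 1.54e-79, 7.33e-18 and 0.000186 in the same order. By this test 88.0% of all fragments were higher in nuclear RNA, so the 4 calls are near the background.

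The ratios of 3 of these fragments were low for the set. The median nuclear to cytoplasmic ratio over the 687 fragments with reads in both libraries was 22.0. Only 13.1% of these fragments had a lower ratio than the SRSF4 fragment, 12.8% a lower one than the long HNRNPU fragment and 13.4% a lower one than the HNRNPD fragment, against 40.3% for the short HNRNPU fragment. The library totals are not known, so these counts are as deposited. When both libraries were scaled to their sums over the listed fragments, the ratios of the SRSF4, long HNRNPU and HNRNPD fragments became 0.431, 0.425 and 0.432. That of the short HNRNPU fragment became 1.28 and was no longer called. This scaling sets the summed ratio of the listed fragments to 1, so any fragment below that ratio must fall under 1. These values are relative to the other fragments and do not show an excess of cytoplasmic RNA. The study, which scaled to all mapped reads, described most of its fragments as higher in nuclear RNA. The numbers of all fragments called higher in nuclear and in cytoplasmic RNA were 792 and 1 as deposited, 126 and 71 with that scaling, and 23 and 102 with libraries scaled to an equal median ratio.

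**Figure D4:**
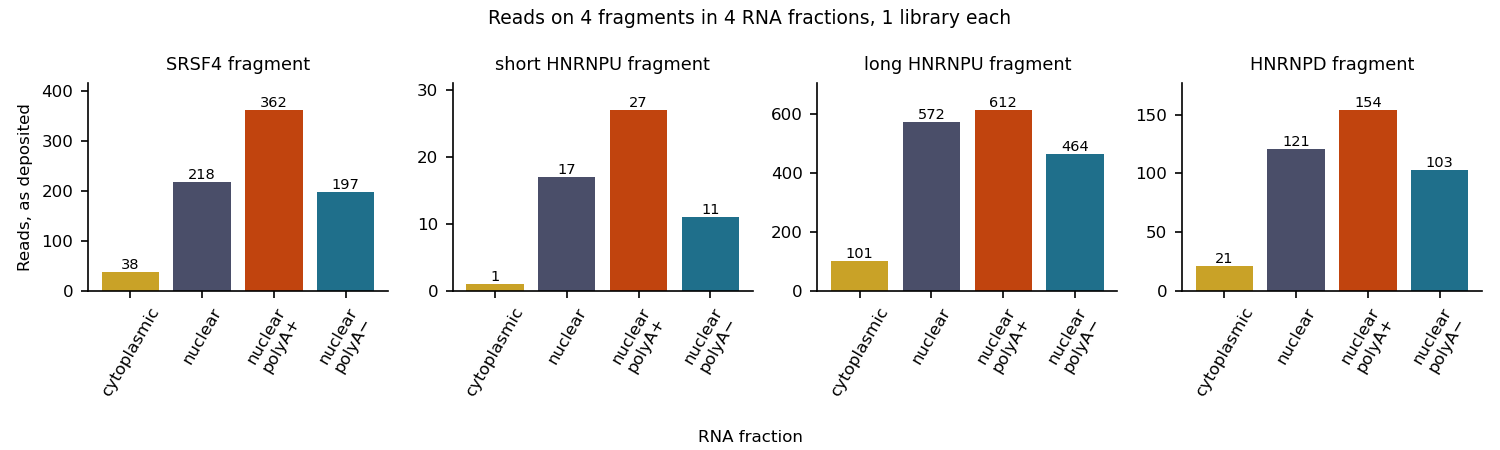
Reads as deposited (vertical axis, from 0, with its own scale in each panel) on the 4 fragments in SRSF4, HNRNPU and HNRNPD, by RNA fraction along the horizontal axis, with 1 library per fraction and no error bars. In all 4 panels the polyA+ bar is the highest and the cytoplasmic bar the lowest.

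Among nuclear RNAs, each of the 4 fragments was covered by more reads of the polyA+ than of the polyA− library. The ratio of polyA+ to polyA− reads was 1.84 (1.54 to 2.20) for the SRSF4 fragment, from 362 and 197 reads. For the short HNRNPU fragment it was 2.45 (1.18 to 5.48), from 27 and 11 reads. For the long HNRNPU fragment it was 1.32 (1.17 to 1.49), from 612 and 464 reads, and for the HNRNPD fragment it was 1.495 (1.16 to 1.94), from 154 and 103 reads. The adjusted p-values of the exact binomial test were 1.03e-11, 0.0192, 1.504e-05 and 0.00277 in that order. All 4 were called, whereas 6.89% of the 900 fragments were called higher in polyA+ RNA and 68.0% higher in polyA− RNA. By read number alone, 12.1% of the fragments had more polyA+ reads. The HNRNPU fragments share a gene and are not independent of each other. With 1 library per fraction the test compares these libraries and not the conditions, and the intervals cover counting error only.

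The polyA+ to polyA− ratios of these 4 fragments ranked 24 (short HNRNPU), 42 (SRSF4), 61 (HNRNPD) and 77 (long HNRNPU) from the top of the 840 fragments with reads in both libraries, whose median ratio was 0.283. This order does not depend on how the libraries are scaled. Each of the 4 remained called in the same direction under both scalings tried. These scalings raise every polyA+ to polyA− ratio, by factors of 1.83 (sum) and 3.54 (median), so they could not have weakened the calls. With sum scaling, 129 of the 900 fragments (14.3%) were called higher in polyA+ and 407 (45.2%) higher in polyA− RNA. With median scaling, which sets the median fragment to an equal ratio, 252 fragments were called higher in polyA+ and 174 in polyA− RNA. Those counts are relative to the listed fragments. In total, the 4 fragments had 161 cytoplasmic, 928 nuclear, 1155 polyA+ and 775 polyA− reads. They carried 2.03%, 0.878%, 1.99% and 0.731% of the reads counted on all 900 fragments in the respective libraries, which were 7929, 105661, 57985 and 106051.

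Per kilobase, nuclear reads were 132 on the long HNRNPU fragment, 70.1 on the SRSF4 fragment, 69.0 on the HNRNPD fragment and 64.2 on the short HNRNPU fragment. PolyA+ reads per kilobase were 142, 116, 87.8 and 102 in that order. The long HNRNPU fragment was thus the highest in both libraries, and the other 3 lay within 64.2 to 70.1 nuclear reads per kilobase. By the total of nuclear reads the long HNRNPU fragment was number 27 and by polyA+ reads number 7 of the 900.

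**Figure D5:**
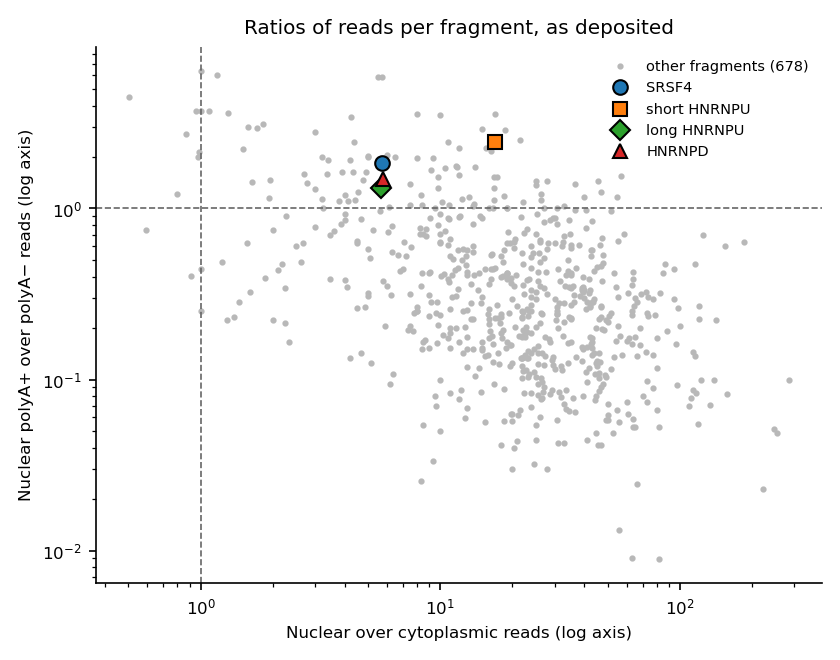
Nuclear over cytoplasmic reads (horizontal log axis) against polyA+ over polyA− reads (vertical log axis) for the 682 fragments with reads in all 4 libraries, as deposited, where dashed lines mark equal counts, grey points are other fragments and coloured symbols the 4 fragments of SRSF4, HNRNPU and HNRNPD. The coloured symbols all lie above the horizontal line, 3 of them together near a nuclear ratio of 5.7 and the short HNRNPU fragment at 17.0.

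An excess of polyA+ reads was also counted over the whole set by annotation. Of the 44 fragments of coding genes that touch an exon of a nonsense-mediated decay or retained-intron transcript, among them both HNRNPU fragments and that of SRSF4, 24 (54.5%) had more polyA+ than polyA− reads. Of the other 856 fragments, the HNRNPD fragment included, 85 (9.93%) did. Of the 44, 14 touch no canonical exon, and 6 of these (42.9%) had more polyA+ reads. The SRSF4 and both HNRNPU fragments are counted among the 24, and the SRSF4 and short HNRNPU fragments among the 6. These counts are therefore not independent of the values above. This grouping was made after the values of the 4 fragments had been seen, and it was not tested.

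Because the polyA+ RNA was captured on magnetic beads that isolate poly(A) RNA, A runs within the fragments were counted in the RNA sense of the host gene. The longest were 19 bases in the SRSF4 fragment, 6 in the short HNRNPU, 8 in the long HNRNPU and 9 in the HNRNPD fragment. The run of the SRSF4 fragment lies within the 30-base window with most G and A (26 of 30), chr1:29168182-29168211, shown with G and A in capitals.
SRSF4 window: tAAAAAAAAAAAAAAAAAAAttAcAAAAAA
Among the 698 fragments whose strand could be set from their genes, 18 of 79 (22.8%) with a run of at least 15 A had more polyA+ reads, compared with 68 of 619 (11.0%) without such a run. The SRSF4 fragment is itself among the 18. The part of this run in the reads of the SRSF4 fragment was not tested, and the other 3 fragments had no run of that length.

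Base composition was among the properties of EZH2-bound RNA that the study examined. The G and A content of the 4 fragments was computed in the RNA sense of the host gene. The G and A content was 54.9% for HNRNPD, 52.5% for SRSF4, 51.7% for the long and 51.3% for the short HNRNPU fragment, compared with a median of 52.8% over the 698 fragments. The G content alone was 23.8%, 22.4%, 19.1% and 16.2% in that order, beside a median of 20.4%. The long HNRNPU fragment had the window richest in G and A of the 4, at chr1:244846804-244846833 with 28 of 30, and windows of at least 28 occurred in 21.2% of the fragments.
Long HNRNPU window: cAAAGAGGGAGGGGtGAGGGAAGGGGAAAG
The highest values of the HNRNPD and short HNRNPU fragments were 24 and 20 of 30, below the median of 26.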

How the data were processed

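Wild-type K562 RNA was analysed in 5 libraries. Per the methods, the authors aligned adapter-trimmed reads (TrimGalore) by STAR to GRCh38 and GENCODE 26 and discarded PCR duplicates and low mapping quality (under 20). FPKM values per gene, with bounds whose confidence level is not given in the sources used here, were made by the authors with cuffdiff and deposited for the input RNA. Read counts per EZH2 RIP-seq fragment were made by the authors with featureCounts and deposited unscaled, with the strand setting not given. Library totals are unknown, so depth is given as the sum over the fragments.

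Genes were selected by name. Pseudogenes were removed by their GENCODE 44 type. Each fragment was given an exact two-sided binomial test, adjusted over all 900 fragments (Benjamini-Hochberg, threshold 0.05), with 95% Clopper-Pearson intervals. The test was checked on simulated data. Simulated 100-base reads, placed every 25 bases, were mapped with minimap2 2.31. Analyses used scipy 1.17.1, numpy 2.4.6 and pandas 2.3.3 in Python 3.11.15, with samtools 1.23.1 through pysam 0.24.0 for sequence and matplotlib 3.10.9 for plots.

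Named genes were all 57, the entries at the ends of each comparison list with those under 1, and all fragments touching these genes. Genes and lists were chosen with earlier results of these data known. Alternatives covered thresholds, pseudocounts, gene sets, overlap, library scaling and a count filter. A marker gene of the lists is not reported here.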

Additional observations from a re-analysis of the deposited data

How the results depend on the processing

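Of 46 alternative values, 33 kept their direction, call or size, including the number of genes at or above an FPKM of 0.1 (54) or 10 (47), the spread within complexes and the polyA+ excess of all 4 fragments. Some of these 33 could not have come out otherwise. Among them are the log2 medians of families with an odd number of genes and the count filter, which all 4 fragments pass. The scalings of polyA− against polyA+ reads likewise could only raise the polyA+ excess. The share of entries at or above 1 moved from 21.8% to 37.5% when entries at 0 were left out. The HNRNP median moved from 58.1 to 77.7 without HNRNPCL1 to HNRNPCL4 and to 65.6 with HNRNPA2B1. The SNRP median went from 47.4 to 40.5 with SNRNP70, a shift that was counted among the 33. The nuclear to cytoplasmic ratios depended on scaling. With libraries scaled to their sums over the fragments they were 0.431 for SRSF4, 0.425 for the long HNRNPU, 0.432 for HNRNPD and, without a call, 1.28 for the short HNRNPU fragment (adjusted p of the exact binomial test 1.0). With an equal median ratio they were 0.261, 0.257, 0.262 and 0.773. These scalings change the count ratio that stands for no difference, from 1 to 13.3 and 22.0. A value under 1 therefore means a ratio below that of the listed fragments, and does not show an excess of cytoplasmic RNA. The numbers of fragments called higher in polyA− and in polyA+ RNA were 612 and 62 as deposited, 407 and 129 with the sum scaling and 174 and 252 with the median scaling. The median of the U2AF pair was 13.3 on the FPKM scale and 7.85 or 7.21 when taken on log2(FPKM + 1) or log2(FPKM + 0.1). No paired analysis was possible because each group used here is 1 library. Leaving out a replicate was likewise not possible. Counts below about 20 reads, as for the short HNRNPU fragment in cytoplasmic RNA, give wide intervals.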

Other observations

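HNRNP pseudogenes whose names match the pattern were mostly near 0 in the input RNA. Pseudogenes of the other families do not match it and were not analysed here. The name pattern matched 86 entries, of which 29 were annotated as pseudogenes, all of HNRNP genes. Of these 29, 5 reached an FPKM of 1, 7 were listed at 0, and the median was 0.194. The 5 were HNRNPCP4 at 3.91 (bounds 2.80 to 5.03), HNRNPRP1 at 1.65 (1.14 to 2.15), HNRNPUP1 at 1.53 (0.162 to 2.91), HNRNPCP1 at 1.24 (0.550 to 1.92) and HNRNPCP2 at 1.12 (0.523 to 1.72). HNRNPCP4, HNRNPCP1 and HNRNPCP2 are copies of HNRNPC, whose own FPKM was 151. Of simulated reads from the 29 pseudogenes, between 90.6% and 100% aligned back to each at a mapping quality of 20 or more.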
